A study of Mus musculus with 768 samples.

Results

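The genes described here are Calb1 (calbindin), Calb2 (calretinin), Pvalb (parvalbumin), Necab1, Necab2 and Necab3, chosen by name as neuronal calcium-binding proteins, 6 of the 24489 genes in the count table. They were followed across single nuclei of mouse striatum in 768 wells, on 1 plate per genotype. The first plate came from untreated C57BL/6 mice with Oprm1-Cre and H2BG, a genotype meant for neurons of the patches. The second, to which it was compared, came from untreated C57BL/6 mice with Slc32a1-Cre and H2BG, meant for GABAergic neurons in general. H2BG was shared by both, and the Cre drivers are those of the mu opioid receptor gene and of the vesicular GABA transporter gene. The labels name no animals, ages or sexes. Each genotype is therefore 1 sample, nuclei are not replicates, and no test between groups was possible. Differences are given as values, with intervals that cover counting error only.

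These proteins bind calcium through EF-hands, helix-loop-helix segments that close around the ion. Calbindin, calretinin and parvalbumin act mainly as buffers that shape how long and how far a calcium signal travels in a neuron, and their genes are classical labels of neuron types. In the striatum calbindin is known as a label of the matrix, the larger compartment, and is weak in the patches (striosomes), the mu opioid receptor-rich islands within it. Parvalbumin and calretinin are known from separate sets of striatal interneurons. The NECAB proteins carry an EF-hand domain near the N-terminus and a C-terminal domain of the antibiotic biosynthesis monooxygenase type. NECAB1 is reported to bind synaptotagmin 1, NECAB2 the metabotropic glutamate receptor mGluR5 and the adenosine receptor encoded by Adora2a, and NECAB3 the adaptor APBA2.

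In mm10 coordinates Calb1 lies on the plus strand of chromosome 4 (15881264 to 15908064), and Necab1 on its minus strand (14952245 to 15149794). Calb2 lies on the minus strand of chromosome 8 (110137502 to 110168210) and Necab2 on its plus strand (119446719 to 119472640). Pvalb lies on the minus strand of chromosome 15 (78191114 to 78206400), and Necab3 on that of chromosome 2 (154544399 to 154558890). The antisense gene Gm11837 shares exon sequence with Necab1, and Necab3 overlaps 1700003F12Rik on the opposite strand. The use of strand in counting was not given in the sources used here. Necab1 and Necab3 counts may thus hold reads of these partners.

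RefSeq promoter windows (250 bases before to 50 after a transcript start, build GRCm38.p6, the mm10 assembly) were at hand for Necab2, Necab3 and Pvalb. They are shown because these genes cover the range of patterns described below, from Necab2 in most nuclei to Pvalb in few. Capitals mark GGGCGG, the GC box, on either strand, and no match overlaps another. Necab2 holds 1 match, Necab3 holds 3, and the Pvalb window holds none. Of 32851 promoter windows of the same length, 35.7% hold the motif. TATAAA was found in no window of these genes, against 13.6% of all windows. The windows are Necab2 at chr8:119446469-119446768 on the plus strand, Necab3 at chr2:154558804-154559103 on the minus strand, and Pvalb at chr15:78206351-78206650 on the minus strand.
Necab2: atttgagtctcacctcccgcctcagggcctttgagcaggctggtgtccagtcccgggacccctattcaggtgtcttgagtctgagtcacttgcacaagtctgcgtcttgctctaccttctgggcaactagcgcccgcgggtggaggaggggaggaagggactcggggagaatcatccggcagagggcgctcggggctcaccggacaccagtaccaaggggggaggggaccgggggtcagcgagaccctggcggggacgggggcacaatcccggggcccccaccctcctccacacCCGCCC
Necab3: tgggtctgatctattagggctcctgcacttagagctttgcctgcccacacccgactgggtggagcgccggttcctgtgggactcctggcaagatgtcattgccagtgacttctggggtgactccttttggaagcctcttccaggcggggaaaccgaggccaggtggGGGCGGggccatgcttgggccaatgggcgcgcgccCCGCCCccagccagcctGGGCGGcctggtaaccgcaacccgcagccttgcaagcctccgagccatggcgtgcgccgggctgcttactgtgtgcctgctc
Pvalb: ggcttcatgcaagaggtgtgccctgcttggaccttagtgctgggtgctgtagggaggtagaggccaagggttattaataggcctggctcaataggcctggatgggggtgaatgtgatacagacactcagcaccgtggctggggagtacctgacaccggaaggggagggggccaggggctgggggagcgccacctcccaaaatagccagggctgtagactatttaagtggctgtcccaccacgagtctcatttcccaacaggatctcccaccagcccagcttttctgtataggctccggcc

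Of the wells, 736 were kept, with at least 1000 genes and 20000 reads on genes, and 29 Oprm1-Cre and 3 Slc32a1-Cre wells were left out. The median depth was 169398 reads in Oprm1-Cre and 175337 reads in Slc32a1-Cre nuclei. Spiny projection neurons (SPNs), the output neurons of the striatum, come in D1 and D2 types, named for their dopamine receptors. The Oprm1-Cre plate held 300 of the 495 D1-like nuclei, and D1-like nuclei made up 84.5% of its kept nuclei against 51.2% on the Slc32a1-Cre plate. There were 24 Oprm1-Cre D2-like nuclei (6.76%), while D2-like nuclei made up 38.6% of the Slc32a1-Cre plate. Interneuron-like nuclei numbered 16 and 18 on the Oprm1-Cre and Slc32a1-Cre plates, SPN-like nuclei of undecided type 9 and 17, and unnamed nuclei 6 and 4. Levels are counts per 1000000 reads (CPM) of the summed reads of a class. Drd1a, a D1 marker, had 1829 CPM in Oprm1-Cre D1-like against 13.6 CPM in Oprm1-Cre D2-like nuclei, and 2171 against 15.6 CPM for Slc32a1-Cre. D1-like and D2-like are ranges of a marker score, and 31 nuclei lay within 0.5 of its limit. The 26 possible doublets were kept. Xist, the X-inactivation RNA of female cells, had 3.31 CPM in Oprm1-Cre and 2023 CPM in Slc32a1-Cre D1-like nuclei, and the Y-linked Eif2s3y had 229.5 and 0 CPM. Genotype, plate, animals and their sex thus cannot be told apart in any comparison of the plates. Oligodendrocyte markers summed to 318.3 CPM in Oprm1-Cre and 276.5 CPM in Slc32a1-Cre D1-like nuclei, with 5 of 6 markers at 5 CPM or more in both, and to 130.4 and 241.7 CPM in the D2-like nuclei. Their part in the results was not tested.

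Calb1 and Necab2 were abundant in D1-like and D2-like nuclei of both plates. Necab1 varied with class and plate, and Necab3, Pvalb and Calb2 were rare in these nuclei. Per kb of exon, Slc32a1-Cre D1-like nuclei had 158.8 CPM of Calb1, 113.1 CPM of Necab2, 7.83 CPM of Necab1, 6.15 CPM of Necab3 and 1.6 CPM of Pvalb, and no Calb2 read. On the same scale, Slc32a1-Cre D2-like nuclei had 183.9 CPM of Calb1, 91.9 CPM of Necab2, 78.3 CPM of Necab1, 4.53 CPM of Necab3 and 1.92 CPM of Pvalb, again without a Calb2 read. In Oprm1-Cre D1-like nuclei Necab2 led with 73.1 CPM per exon kb, before Calb1 with 63.6 CPM and Necab1 with 22.5 CPM, and the other three lay below 1. In Oprm1-Cre D2-like nuclei Calb1 led with 112.3 CPM per exon kb, before Necab2 with 67.2 CPM and Necab1 with 42.1 CPM. The treatment of intron reads was not given in the sources used here, which limits this scale for nuclear RNA.

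Calb1 was lower in Oprm1-Cre than in Slc32a1-Cre D1-like nuclei. Single nuclei ran from 0 over a median of 56.1 to 2584 CPM on the Oprm1-Cre plate and from 0 over a median of 546 to 4734 CPM on the Slc32a1-Cre plate. The ranges overlapped over most of their length, while the medians stood far apart. Summed reads gave 308.04 CPM (95% Poisson interval 303.4 to 312.7) for Oprm1-Cre and 770 CPM (760 to 779) for Slc32a1-Cre nuclei, a log2 ratio of -1.31 with 5 CPM added to both. Both the share of nuclei with a read and the level within them were lower. After thinning each nucleus to 50000 reads, 61.4% of Oprm1-Cre nuclei (exact Clopper-Pearson 95% interval 55.6% to 67%) and 82% of Slc32a1-Cre nuclei (75.8% to 87.1%) had a Calb1 read. Without thinning the shares were 65.7% and 87.7%. Among nuclei with a read the median was 332.2 CPM for Oprm1-Cre and 713 CPM for Slc32a1-Cre. These share intervals take nuclei of 1 plate as independent draws and say nothing of the spread between animals. For comparison, thinned Th/Trh interneuron-like nuclei had a Calb1 read in 1 of 12 for Oprm1-Cre (8.33%) and in 0 of 2 for Slc32a1-Cre. That 1 nucleus had 502 CPM of Calb1, above the median of 332.2 CPM in Oprm1-Cre D1-like nuclei with a read. Its share thus does not measure a background. Median depths were 193110 reads in Oprm1-Cre and 264476 reads in Slc32a1-Cre Th/Trh-like nuclei, and 169770 and 166894 reads in the D1-like nuclei of these plates.

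In D2-like nuclei Calb1 had 544 CPM (522 to 567) for Oprm1-Cre and 891 CPM (880 to 902) for Slc32a1-Cre, a log2 ratio of -0.71. The share of D2-like nuclei with a Calb1 read did not separate the plates, with 79.2% (57.8% to 92.9%) of the 24 Oprm1-Cre nuclei and 78.9% (71.4% to 85.2%) of the Slc32a1-Cre nuclei after thinning. Calb1 was also lower in D1-like than in D2-like nuclei of both plates, with log2 ratios of -0.81 for Oprm1-Cre and -0.21 for Slc32a1-Cre. In the order of Calb1 levels, Slc32a1-Cre D2-like nuclei stood first and Slc32a1-Cre D1-like nuclei next. Oprm1-Cre D2-like nuclei and undecided Slc32a1-Cre nuclei (500 CPM, 473 to 527) came after them, with overlapping counting intervals. Oprm1-Cre D1-like nuclei followed, not separated from the 4 unnamed Slc32a1-Cre nuclei (268.7 CPM, of which 98.6% were reads of 1 nucleus). Slc32a1-Cre interneuron-like nuclei (167.6 CPM) and the undecided (55.5 CPM), interneuron-like (34.1 CPM) and unnamed (1.07 CPM) Oprm1-Cre nuclei stood last.

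Necab1 was higher in Oprm1-Cre than in Slc32a1-Cre D1-like nuclei. It had 117.7 CPM (114.9 to 120.6) for Oprm1-Cre and 41 CPM (38.9 to 43.2) for Slc32a1-Cre, a log2 ratio of 1.42. Single nuclei ran from 0 over a median of 2.53 to 1112 CPM on the Oprm1-Cre plate and from 0 over a median of 0 to 1383 CPM on the Slc32a1-Cre plate. A Necab1 read was found after thinning in 45% (39.2% to 50.8%) of Oprm1-Cre and 19.6% (14.2% to 25.9%) of Slc32a1-Cre D1-like nuclei. Without thinning the shares were 50.3% and 25.6%. As a background, 1 of 12 Oprm1-Cre (8.33%, 0.211% to 38.5%) and 0 of 2 Slc32a1-Cre Th/Trh interneuron-like nuclei had a Necab1 read after thinning, and 3 of all 15 (20%) without thinning. With so few nuclei, the share in Slc32a1-Cre D1-like nuclei cannot be set apart from that background. The levels did differ, as no Th/Trh-like nucleus exceeded 23.7 CPM of Necab1. Slc32a1-Cre D1-like nuclei with a read ran from 3.22 over a median of 67.2 to 1383 CPM. In Slc32a1-Cre D1-like nuclei 1 nucleus held 20.6% of the Necab1 reads. Without the nucleus richest in Necab1 on each plate the log2 ratio was 1.63.

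D2-like nuclei held more Necab1 than D1-like nuclei on both plates. For Oprm1-Cre the sums were 117.7 CPM in D1-like nuclei against 220.4 CPM (206.3 to 235.2) in D2-like nuclei, a log2 ratio of -0.88. For Slc32a1-Cre they were 41 CPM in D1-like nuclei against 410 CPM (403 to 417) in D2-like nuclei, a log2 ratio of -3.17. The D2-like nuclei ran from 0 over a median of 130.4 to 2046 CPM for Oprm1-Cre and from 0 over a median of 199.4 to 2441 CPM for Slc32a1-Cre. Thinned shares with a read were 75% (53.3% to 90.2%) and 70.7% (62.7% to 78%) in these nuclei. Between the plates, D2-like nuclei had a log2 ratio of -0.88, opposite in sign to that of D1-like nuclei, and the difference between the types was not tested. In the order of Necab1 levels the 6 unnamed Oprm1-Cre nuclei (620 CPM) and the undecided Slc32a1-Cre nuclei (567 CPM) stood first with overlapping intervals, and Oprm1-Cre interneuron-like nuclei (2.9 CPM) last.

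Necab2 was lower in Oprm1-Cre than in Slc32a1-Cre nuclei of both SPN types, by less than Calb1. In D1-like nuclei it had 153.3 CPM (150 to 156.6) for Oprm1-Cre and 237.1 CPM (232.1 to 242.2) for Slc32a1-Cre, a log2 ratio of -0.61. In D2-like nuclei it had 140.8 CPM (129.6 to 152.8) for Oprm1-Cre and 192.6 CPM (187.6 to 197.6) for Slc32a1-Cre, a log2 ratio of -0.44. Single D1-like nuclei ran from 0 over a median of 67 to 970 CPM on the Oprm1-Cre plate and from 0 over a median of 153.5 to 1020.5 CPM on the Slc32a1-Cre plate, so the ranges nearly coincided. D1-like over D2-like nuclei gave log2 ratios of 0.12 for Oprm1-Cre, with an interval of -0.03 to 0.26 that includes 0 and a value of -0.07 when scaled to spike-ins, and 0.29 for Slc32a1-Cre. After thinning, 63.8% (58% to 69.2%) of Oprm1-Cre and 75.3% (68.6% to 81.2%) of Slc32a1-Cre D1-like nuclei had a Necab2 read.

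Necab3 was rare in SPNs and nearly absent from Oprm1-Cre nuclei. In D1-like nuclei it had 0.597 CPM (0.411 to 0.838) from reads in 4 Oprm1-Cre nuclei, and 15.7 CPM (14.4 to 17) from reads in 18 Slc32a1-Cre nuclei, a log2 ratio of -1.89. The thinned shares were 1.34% (0.367% to 3.4%) for Oprm1-Cre and 7.22% (4.0% to 11.8%) for Slc32a1-Cre. The Slc32a1-Cre nuclei with a read had a median of 149.6 CPM, so Necab3 was read at a sizeable level in few nuclei. In D2-like nuclei it had 0.485 CPM from 2 reads of 1 Oprm1-Cre nucleus, and 11.5 CPM from 7 Slc32a1-Cre nuclei, a log2 ratio of -1.59. A single Slc32a1-Cre nucleus held 57.4% of those D2-like reads, and without the nucleus richest in Necab3 on each plate the log2 ratio was -1.0.

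Calb2 and Pvalb were close to 0 in the summed reads of SPN-like nuclei. Calb2 had 45 reads in 2 Oprm1-Cre D1-like nuclei (0.814 CPM) and none in Slc32a1-Cre D1-like nuclei. That allows up to 0.0847 CPM at 3 reads, and the exact interval for the share of nuclei with a read reaches 1.87%. Pvalb had 0.524 CPM from 5 Oprm1-Cre and 1.67 CPM from 4 Slc32a1-Cre D1-like nuclei. In D2-like nuclei Pvalb had 0.485 CPM from 1 Oprm1-Cre and 2.0 CPM from 2 Slc32a1-Cre nuclei. Neither gene reached 5 CPM in the sums of D1-like or D2-like nuclei, the level from which a ratio was counted. The few nuclei with a read could have more. The 2 Oprm1-Cre D1-like nuclei had 115.3 and 179.6 CPM of Calb2. Slc32a1-Cre SPN-like nuclei with a Pvalb read ran from 30.6 over a median of 73.4 to 370.7 CPM. Oprm1-Cre ones ran from 5.59 over a median of 13.2 to 55.8 CPM.

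**Figure D1:**
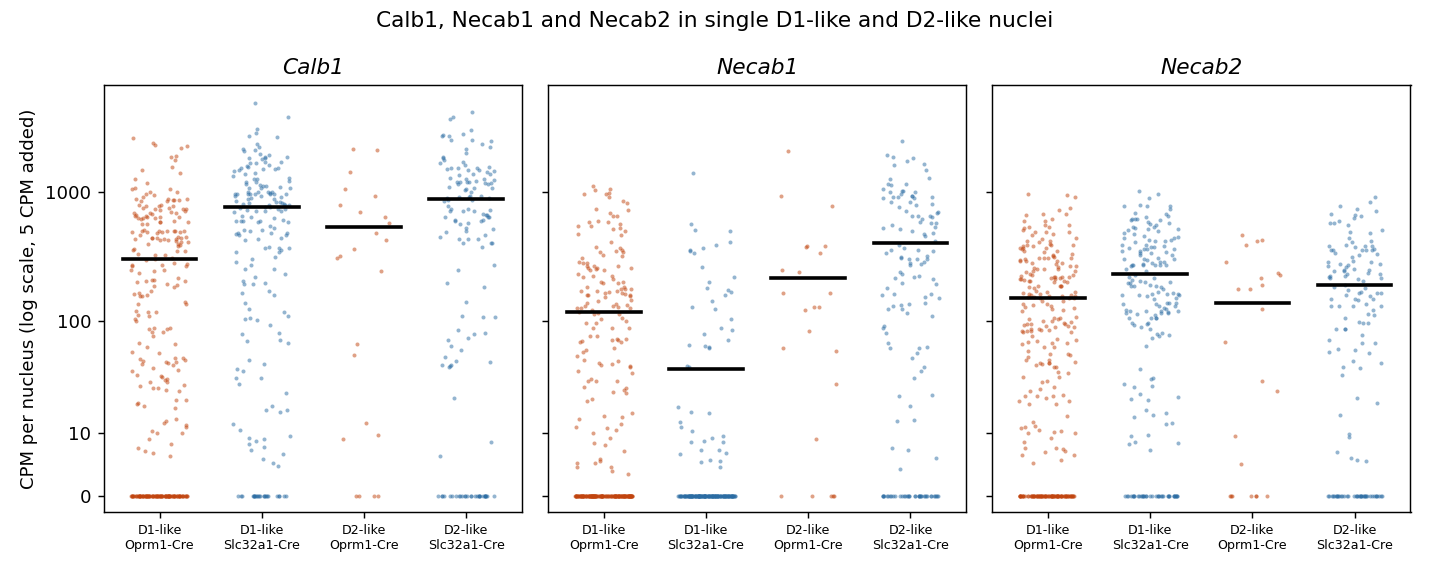
Each point is the level of Calb1, Necab1 or Necab2 in 1 nucleus, in CPM on a log scale with 5 CPM added (y axis), by class and plate (x axis, orange for Oprm1-Cre and blue for Slc32a1-Cre), and black bars are the CPM of the summed reads. In D1-like nuclei the Calb1 bars are at 308.04 CPM for Oprm1-Cre and 770 CPM for Slc32a1-Cre and the Necab1 bars at 117.7 and 41 CPM, while the points overlap throughout.

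Members past a log2 ratio of 1 in either direction were read against all genes with at least 5 CPM in either sum. Between plates, D1-like nuclei had 2.9% of 11019 genes above 1 and 1.86% below -1, and of 4 members measured Necab1 was above and Calb1 and Necab3 were below. D2-like nuclei had 9.23% of genes above and 14.3% below, with Necab3 below and none of the 4 members above. D1-like over D2-like nuclei of Oprm1-Cre mice had 16.2% above and 6.61% below, with none of 3 members in either. For Slc32a1-Cre the same contrast had 3.61% above and 1.97% below, with Necab1 below. The median log2 ratio of all genes lay between -0.07 and 0.10 in these comparisons.

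Within a plate, nuclei were ranked by a score of patch or matrix leaning, the difference of the mean log2(CPM + 1) of 9 patch genes from that of 6 matrix genes, none of them a member. The score was split into terciles within plate and class, so the terciles of the 2 plates are not alike. The patch-leaning tercile of D1-like nuclei had a median score of 3.55 for Oprm1-Cre and -0.02 for Slc32a1-Cre.

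Calb1 was lower in the patch-leaning than in the matrix-leaning tercile of 3 of the 4 classes. In Oprm1-Cre D1-like nuclei the patch-leaning, middle and matrix-leaning terciles had 206.9, 325.7 and 404 CPM (100 nuclei each), a log2 ratio of -0.95 between the outer ones. In Slc32a1-Cre D1-like nuclei they had 596, 856 and 848 CPM (65 nuclei each), a log2 ratio of -0.51, with the middle tercile as high as the matrix-leaning one. In Slc32a1-Cre D2-like nuclei they had 593, 969 and 1084 CPM (49 nuclei each), a log2 ratio of -0.86. Oprm1-Cre D2-like nuclei, 8 per tercile, had 572, 559 and 512 CPM (0.16), and no direction can be read from so few nuclei. Medians over nuclei were also lower in the patch-leaning than in the matrix-leaning tercile of the 3 larger classes. From patch-leaning to matrix-leaning they were 37.1, 31.8 and 184.9 CPM in Oprm1-Cre D1-like nuclei, where the middle tercile was lowest, 357.4, 588 and 658 CPM in Slc32a1-Cre D1-like nuclei, and 407, 644 and 926 CPM in Slc32a1-Cre D2-like nuclei. Over single nuclei, which share a plate and differ in depth, Spearman's rho between Calb1 and the score was -0.16 in Oprm1-Cre D1-like nuclei (n = 300), and -0.16 and -0.27 in Slc32a1-Cre D1-like and D2-like nuclei. With genes detected per nucleus it was 0.30, 0.25 and 0.32 in the same classes, and the part of depth in it was not tested.

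Necab1 was higher in the patch-leaning than in the matrix-leaning tercile of D1-like nuclei, with the middle tercile highest for Slc32a1-Cre. That middle tercile held the nucleus with 20.6% of the Necab1 reads of all Slc32a1-Cre D1-like nuclei. Its rank thus rests largely on 1 nucleus, and its level without that nucleus was not computed. From patch-leaning to matrix-leaning, the terciles had 151.2, 113.5 and 84.3 CPM for Oprm1-Cre (log2 ratio 0.81) and 46, 54 and 24.2 CPM for Slc32a1-Cre (0.80). Thinned shares with a read were 50% (39.8% to 60.2%) of patch-leaning and 34% (24.8% to 44.2%) of matrix-leaning Oprm1-Cre D1-like nuclei. In Slc32a1-Cre D1-like nuclei they were 23.4% (13.8% to 35.7%) and 18.5% (9.92% to 30%). Over single nuclei, Spearman's rho between Necab1 and the score was 0.14 in Oprm1-Cre and 0.08 in Slc32a1-Cre D1-like nuclei. Slc32a1-Cre D2-like nuclei had 470, 392 and 372.6 CPM, a log2 ratio of 0.33 that was -0.10 when scaled to spike-ins.

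Necab2 was lower in the patch-leaning tercile of Slc32a1-Cre nuclei. From patch-leaning to matrix-leaning, the terciles had 174.4, 241.4 and 290.8 CPM in D1-like nuclei (log2 ratio -0.72) and 137.04, 160.3 and 267.5 CPM in D2-like nuclei (-0.94). In Oprm1-Cre D1-like nuclei they had 138.4, 162.6 and 160.5 CPM, a log2 ratio of -0.21. The share of Slc32a1-Cre D2-like nuclei with a Necab2 read after thinning was 59.2% (44.2% to 73%) in the patch-leaning and 85.7% (72.8% to 94.1%) in the matrix-leaning tercile. Their ratio of -0.94 ran from -1.37 to -0.39 over the alternative settings tried. Spearman's rho between Necab2 and the score was -0.20 in Slc32a1-Cre D1-like and -0.25 in D2-like nuclei. With genes detected per nucleus it was 0.27 and 0.29, and the part of depth was not tested. Oprm1-Cre D2-like nuclei, 8 per tercile, went the other way with 199.98, 80.3 and 142.1 CPM (0.48, interval 0.12 to 0.84), but this direction did not hold with other splits of the score, at -0.53 for a score above against below 0 and -0.80 for 4 groups.

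**Figure D2:**
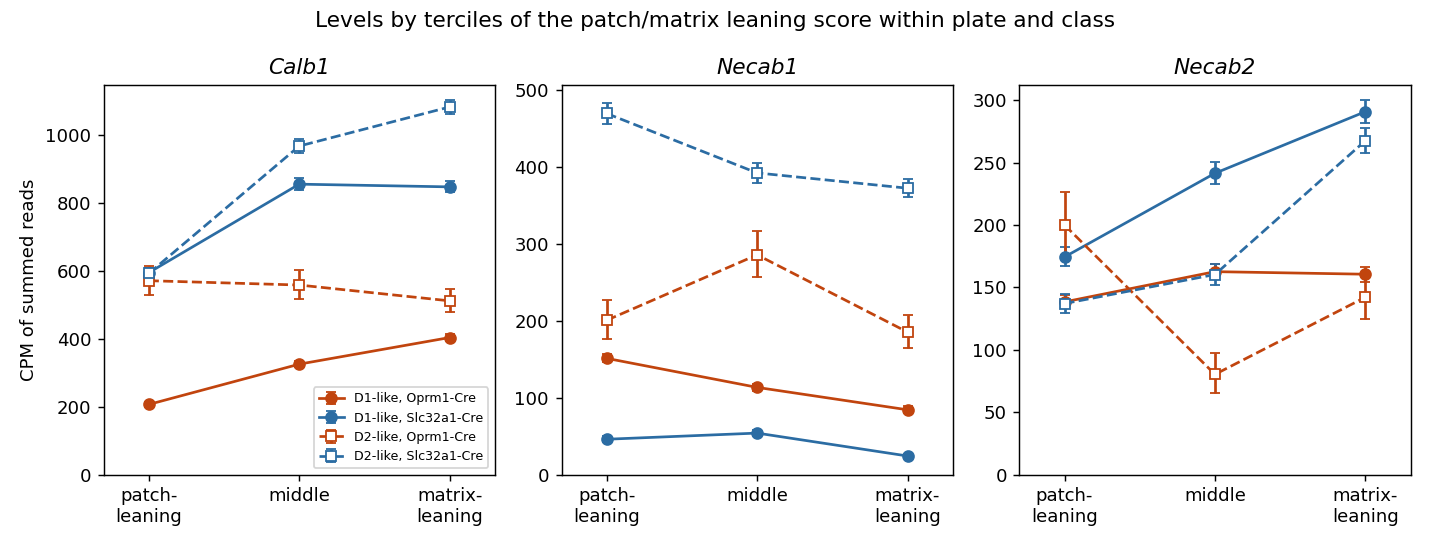
CPM of summed reads (y axis) of Calb1, Necab1 and Necab2 in the patch-leaning, middle and matrix-leaning terciles (x axis) of D1-like (filled circles, solid lines) and D2-like nuclei (open squares, dashed lines), orange for Oprm1-Cre and blue for Slc32a1-Cre, with 95% Poisson bars. Calb1 is lowest in the patch-leaning tercile of 3 of the 4 lines, and the fourth, of Oprm1-Cre D2-like nuclei, rests on 8 nuclei per tercile.

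No member was past 1 between the outer terciles of D1-like nuclei, where 4.83% of genes were above and 5.53% below for Oprm1-Cre and 7.99% and 8.36% for Slc32a1-Cre. In Slc32a1-Cre D2-like nuclei 11.7% of genes were above and 10.5% below, and 2 of 5 members, Necab3 and Pvalb, were above. Both rest on few nuclei. Necab3 had 20.8 CPM in patch-leaning and 2.93 CPM in matrix-leaning nuclei, a log2 ratio of 1.70. A single nucleus held 99% of the patch-leaning reads, and without the nucleus richest in Necab3 on each side the ratio was -0.27. Pvalb had 59 reads in 2 patch-leaning nuclei (6.24 CPM) and none in 49 matrix-leaning ones, so it was at least 22.7-fold higher against a floor of 3 reads in the summed tercile. Its log2 ratio of 1.17 was 0.60 without the richer nucleus.

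The plates differ in leaning, so the D1-like nuclei of both were also split into shared terciles of the score. In the patch-leaning tercile Calb1 had 209.05 CPM for Oprm1-Cre and 494 CPM for Slc32a1-Cre (11 nuclei), a log2 ratio of -1.22. The middle tercile gave 405 CPM for Oprm1-Cre and 620 CPM for Slc32a1-Cre (54 nuclei), a log2 ratio of -0.61. The matrix-leaning tercile gave 450 CPM for Oprm1-Cre (35 nuclei) and 852 CPM for Slc32a1-Cre (130 nuclei), a log2 ratio of -0.91. Calb1 was thus lower in Oprm1-Cre nuclei in all 3 shared terciles. Necab1 had 136.3 CPM for Oprm1-Cre and 53.8 CPM for Slc32a1-Cre in the patch-leaning tercile (log2 ratio 1.26) and 114.7 and 44.1 CPM in the middle one (1.29). In the matrix-leaning tercile it had 39.4 CPM for Oprm1-Cre and 38.6 CPM for Slc32a1-Cre, a log2 ratio of 0.02 with a counting interval of -0.22 to 0.27. The log2 ratios of Necab2 were -0.49, -0.10 and -0.89 from the patch-leaning to the matrix-leaning tercile, and the middle one has an interval that includes 0 (-0.22 to 0.02). Necab3 was lower for Oprm1-Cre in the middle (log2 ratio -1.73) and matrix-leaning (-1.95) terciles. In the patch-leaning tercile it had 0.625 CPM for Oprm1-Cre and 0.456 CPM, from 1 read in 11 nuclei, for Slc32a1-Cre. Neither sum reached 5 CPM, the level from which a ratio was counted, so no direction can be read there. Among D2-like nuclei the shared patch-leaning tercile turned the direction of Calb1, with 643 CPM for Oprm1-Cre (13 nuclei) and 612 CPM for Slc32a1-Cre (44 nuclei), a difference within counting error. In the middle and matrix-leaning ones, with 6 and 5 Oprm1-Cre nuclei, Calb1 was lower for Oprm1-Cre, at 455 CPM against 927 CPM and at 437 CPM against 1066 CPM. Median scores of D1-like nuclei still differed within a shared tercile, at -2.6 for Oprm1-Cre and -3.43 for Slc32a1-Cre in the matrix-leaning one.

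**Figure D3:**
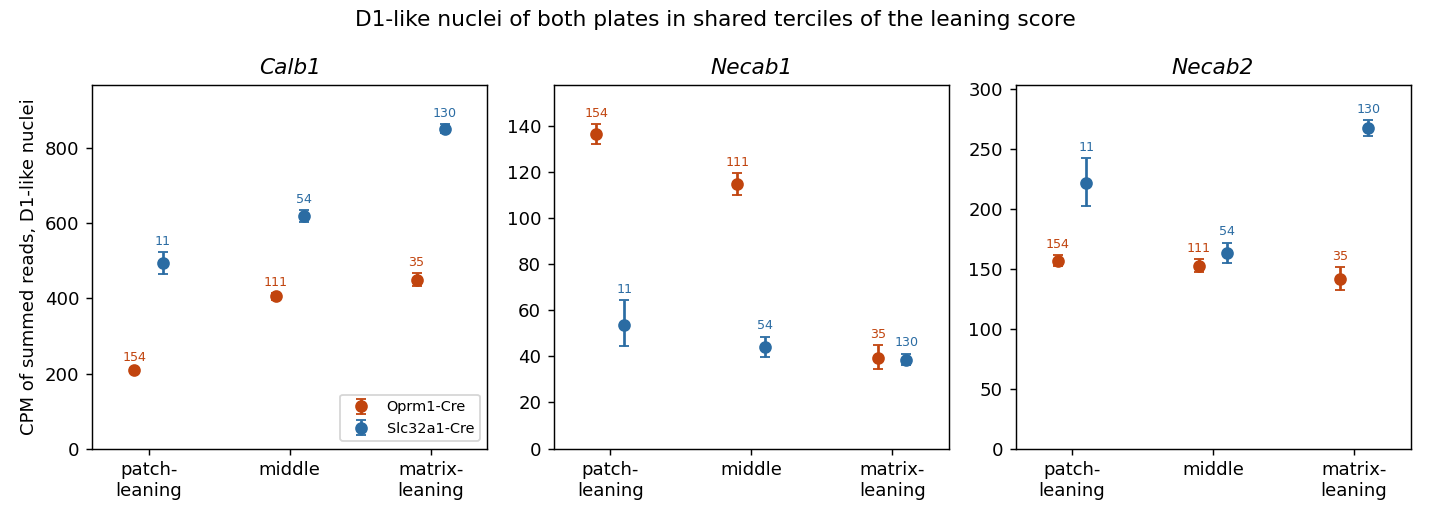
CPM of summed reads with 95% Poisson bars (y axis) of Calb1, Necab1 and Necab2 in D1-like nuclei, split into shared terciles of the leaning score (x axis), orange at the left for Oprm1-Cre and blue at the right for Slc32a1-Cre, with the number of nuclei above each point. Necab1 differs between plates in the patch-leaning and middle terciles and is at 39.4 CPM for Oprm1-Cre and 38.6 CPM for Slc32a1-Cre in the matrix-leaning tercile.

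Striatal interneurons are a small set of local cells, GABAergic or cholinergic. The 34 interneuron-like nuclei fell into 4 groups by the best of their marker lists, which held neither Pvalb nor Calb2. There were 9 Pthlh/fast-spiking-like nuclei, none of them Oprm1-Cre. The 8 Sst/Npy-like nuclei comprised 3 from Oprm1-Cre and 5 from Slc32a1-Cre mice, and the 15 Th/Trh-like nuclei 13 and 2. The last group was 2 Slc32a1-Cre nuclei with Chat reads. Sst had at least 9731 CPM in each of the 8 Sst/Npy-like nuclei, Th and Trh had reads in all 15 Th/Trh-like nuclei, and Pthlh had reads in 8 of 9 Pthlh/fast-spiking-like nuclei. The ninth of these had Chat reads at 324.7 CPM. The marker score of an interneuron-like nucleus was at least 4.19 above the mean of all nuclei, and the highest among unnamed nuclei was 3.03, with the limit set between them after seeing the scores.

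Among interneuron-like nuclei, Pvalb was read in Pthlh/fast-spiking-like nuclei only. The 9 nuclei had 294.4, 240.1, 145.8, 62.7, 32.9, 27.7, 0, 0 and 0 CPM of Pvalb, while the other 25 interneuron-like nuclei had none. The exact 95% interval for the 6 of 9 nuclei with a read was 29.9% to 92.5%. For 0 of 15 Th/Trh-like nuclei the exact interval reaches 21.8%. In SPN-like nuclei, 1.8% of Oprm1-Cre and 1.67% of Slc32a1-Cre nuclei had a Pvalb read, at up to 55.8 and 370.7 CPM.

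Necab1 was high in the same nuclei. All 9 Pthlh/fast-spiking-like nuclei had Necab1 reads, from 209.5 over a median of 288.9 to 1217 CPM. None of the other 25 interneuron-like nuclei exceeded 23.7 CPM. All 9 came from Slc32a1-Cre mice and the other 25 from both plates. The share of all genes that part these sets in the same way is not given here. The 3 nuclei of the group without a Pvalb read had 278.2, 232.7 and 209.5 CPM of Necab1. Calb1 was read in 4 of the 9, at 1633, 665, 214.1 and 81.7 CPM, and all 4 also had Pvalb reads. Necab2 was read in 6 of the 9, with no more than 168.1 CPM, and Calb2 and Necab3 in none.

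Necab2 was the member read most often in Th/Trh-like nuclei. It had reads in 13 of 15, from 0 over a median of 286.5 to 653 CPM, above the medians of 52.7 CPM in Pthlh/fast-spiking-like and 34.6 CPM in Sst/Npy-like nuclei. Th/Trh-like nuclei came mostly from Oprm1-Cre and Pthlh/fast-spiking-like nuclei all from Slc32a1-Cre mice, so plate and subclass cannot be told apart there. The 2 Slc32a1-Cre Th/Trh-like nuclei had 645 and 70.1 CPM, within the range of the Oprm1-Cre ones. Among Sst/Npy-like nuclei, the 3 from Oprm1-Cre mice had 12.6, 7.93 and 0 CPM of Necab2, and the 5 from Slc32a1-Cre mice had 295.4, 113.2, 87.4, 56.6 and 0 CPM.

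Calb2 was read in 2 of 34 interneuron-like nuclei, both Th/Trh-like nuclei of Oprm1-Cre mice, at 165.3 and 72.5 CPM. Among the 13 Oprm1-Cre Th/Trh-like nuclei this is a share of 15.4% (1.92% to 45.4%). In SPN-like nuclei the share was 0.601% for Oprm1-Cre, and for Slc32a1-Cre it was 0, with an exact interval that reaches 1.02%. Calb1 was read in 3 of 8 Sst/Npy-like nuclei (474, 142.4 and 8.74 CPM) and in 1 of 15 Th/Trh-like nuclei (502 CPM). Necab3 had 117.2 CPM in 1 Th/Trh-like, 31.7 CPM in 1 Sst/Npy-like and 3.91 CPM in 1 Chat-bearing nucleus, and no read in the other 31. The 2 Chat-bearing nuclei had no Calb1, Calb2 or Pvalb read.

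**Figure D4:**
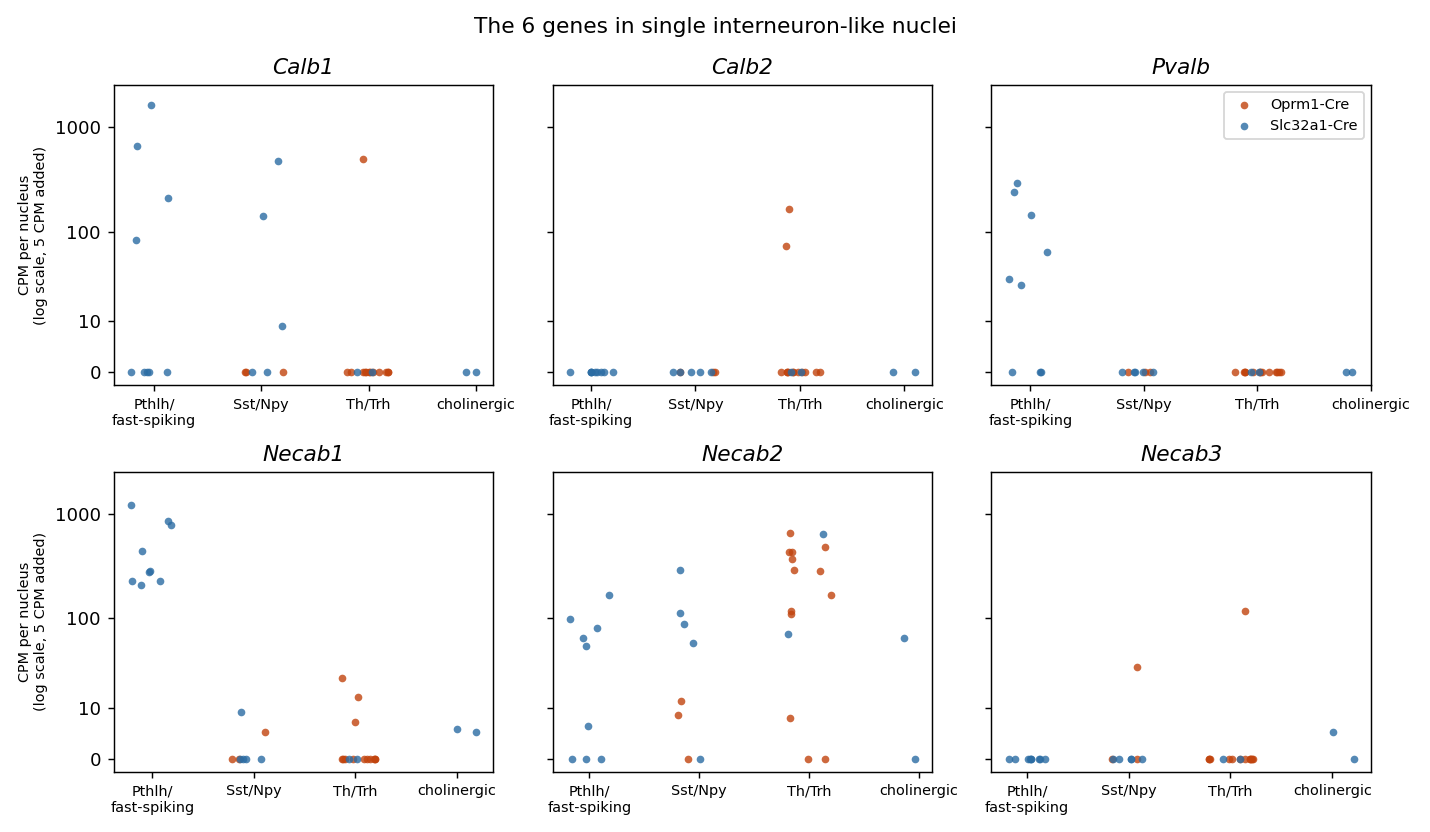
Level of each gene in single interneuron-like nuclei, in CPM on a log scale with 5 CPM added (y axis), by subclass (x axis), orange for Oprm1-Cre and blue for Slc32a1-Cre. Necab1 lies between 209.5 and 1217 CPM in the 9 Pthlh/fast-spiking-like nuclei and at no more than 23.7 CPM elsewhere, Pvalb appears in 6 of these 9, and Necab2 has its highest values in Th/Trh-like nuclei.

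The plates held different interneuron subclasses, and the sums over interneuron-like nuclei are given with that limit. For Oprm1-Cre, Calb1 had 34.1 CPM in interneuron-like nuclei, all from 1 nucleus, and an interval of 314.5 to 323.5 CPM in SPN-like nuclei (log2 ratio -3.05). Necab1 had 2.9 CPM in interneuron-like and 124.5 CPM in SPN-like nuclei (-4.04), and Necab2 had 210.2 and 151.2 CPM (0.46). Calb2 had 13.2 CPM in interneuron-like and 0.742 CPM in SPN-like nuclei (1.66), and 0.91 on the log2 scale without the nucleus richest in it on each side. Necab3 had 12.6 and 0.61 CPM (1.65), and 0.56 likewise. Of 5 members these put 2 above 1, with 19.2% of all genes, and 2 below -1, with 27.5% of all genes.

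For Slc32a1-Cre, Pvalb had 33.2 CPM in interneuron-like and 1.74 CPM in SPN-like nuclei, a log2 ratio of 2.50, and 2.16 without the nucleus richest in it on each side. Calb1 had 167.6 CPM in interneuron-like and 811 CPM in SPN-like nuclei (-2.24), and Necab2 had 102.2 and 212.8 CPM (-1.02). Necab3 had 0.259 CPM on 1 read in interneuron-like and 17 CPM in SPN-like nuclei (-2.06). Necab1 had 229.9 CPM in interneuron-like and 223.2 CPM in SPN-like nuclei, a log2 ratio of 0.04 with an interval from -0.08 to 0.16. That sum joins the Pthlh/fast-spiking-like nuclei (491 CPM) with 9 nuclei of other groups that had no more than 8.74 CPM each. Above 1 were 17.7% of all genes and below -1 were 21.7%, against 1 and 3 of 5 members.

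**Figure D5:**
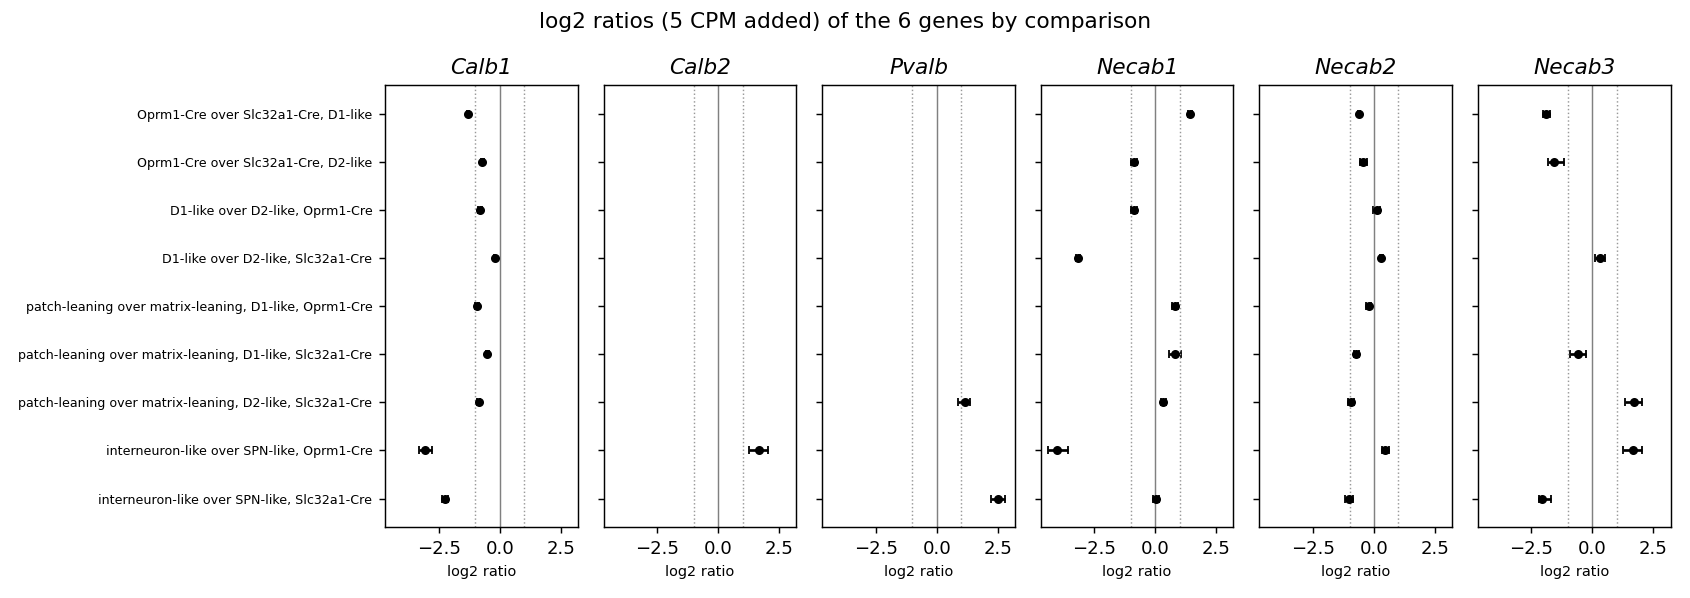
Log2 ratio with 5 CPM added (x axis, first-named group over the second) of each gene in each of 9 comparisons (y axis), with counting-error intervals. Dotted lines mark -1 and 1, and a gene is drawn where either sum reached 5 CPM. Calb1 lies below 0 in all 9 comparisons drawn. Patch-leaning over matrix-leaning Oprm1-Cre D2-like nuclei, 8 per tercile and with Calb1 at 0.16, are not drawn. Necab1 lies at 1.42 between plates in D1-like nuclei and at -0.88 in D2-like nuclei.

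In D1-like nuclei the shares with reads of a pair of these genes lay close to the product of the single shares. In Oprm1-Cre D1-like nuclei after thinning, 26.8% had reads of both Calb1 and Necab1, against a product of 27.6%. For Calb1 with Necab2 the values were 40.6% and 39.2%, and for Necab1 with Necab2 they were 28.2% and 28.7%. For Slc32a1-Cre the pairs in this order had 14.9% against 16.1%, 62.4% against 61.7%, and 14.4% against 14.7%. In D2-like nuclei some pairs lay further apart. In the 24 Oprm1-Cre D2-like nuclei they had 66.7% against 59.4%, 62.5% against 49.5%, and 54.2% against 46.9%, and in Slc32a1-Cre D2-like nuclei 53.7% against 55.8%, 58.5% against 54.2%, and 50.3% against 48.6%. Necab2 was read in 74.1% of Slc32a1-Cre D2-like nuclei with a Calb1 read and in 48.4% of those without. Necab1 went the other way, with 68.1% and 80.6%. Spearman's rho with genes detected per nucleus was 0.32 for Calb1 and 0.29 for Necab2 in these nuclei. The part of depth in the shares was not tested.

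Further lists, chosen with earlier results of these data known, put the family beside other calcium genes, and they are described by counts and medians. Of 30 other EF-hand genes 22 reached 5 CPM in D1-like nuclei, and between the plates 1 was above 1 and 1 below -1, where all genes had 2.9% above and 1.86% below; their median log2 ratio was -0.09, beside 0.0 for all genes. Vsnl1, which encodes the calcium sensor visinin-like 1, had 22.5 CPM in Oprm1-Cre and 7.37 CPM in Slc32a1-Cre D1-like nuclei (1.15). S100a10, whose protein pairs with annexin A2, had 0.958 and 12.1 CPM (-1.52). Of 12 calcium clearance genes 11 were measured, 2 were above and none below, and the median was 0.17. Slc8a1, a sodium/calcium exchanger gene, had 35.8 CPM in Oprm1-Cre and 0.424 CPM in Slc32a1-Cre D1-like nuclei (2.91). Atp2b4, a plasma membrane calcium pump gene, had 73.6 and 22.6 CPM (1.51). Of 17 calmodulin targets and regulators 2 were above and none below, with a median of 0.15. These were Pde1a, a calmodulin-stimulated phosphodiesterase gene (68.1 CPM for Oprm1-Cre and 12.7 CPM for Slc32a1-Cre), and Camk2d, a calmodulin-dependent kinase gene (15.8 and 0.311 CPM).

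Between the plates in D2-like nuclei none of 21 EF-hand genes was above and 6 were below, where all genes had 9.23% above and 14.3% below, and their median log2 ratio was -0.14 beside -0.07. S100a10 had 3.15 CPM in Oprm1-Cre and 16.2 CPM in Slc32a1-Cre D2-like nuclei (-1.38), with reads in 2 and 19 nuclei.

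The genes of the reported NECAB partners were not past 1 between the plates. In D1-like nuclei Syt1 (synaptotagmin 1) had 1217 CPM for Oprm1-Cre and 1477 CPM for Slc32a1-Cre (log2 ratio -0.28), Grm5 (mGluR5) had 1457 and 1506 CPM (-0.05), and Apba2 had 56.1 and 46.4 CPM (0.25). Adora2a is itself a D2 marker, with 15.5 CPM in D1-like nuclei against 1738 CPM in D2-like nuclei of Slc32a1-Cre mice (-6.41), where Necab2 had 237.1 and 192.6 CPM.

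Between patch-leaning and matrix-leaning Slc32a1-Cre D2-like nuclei, 2 of 20 measured EF-hand genes were above and 4 below, where all genes had 11.7% above and 10.5% below. S100b had 14.3 CPM in patch-leaning and 0.825 CPM in matrix-leaning nuclei (1.73), and S100a10 had 5.29 and 26.9 CPM (-1.63). Of 11 clearance genes 2 were above and none below, Atp2b4 (40.5 CPM in patch-leaning and 4.31 CPM in matrix-leaning nuclei, 2.29) and Slc8a1 (16.8 and 0.275 CPM, 2.05, from reads in 2 nuclei on each side). In Oprm1-Cre D1-like nuclei none of 11 clearance genes was above and 2 were below, where all genes had 4.83% above and 5.53% below, and Slc8a1 had 21.5 CPM in patch-leaning and 55.1 CPM in matrix-leaning nuclei (-1.18). In interneuron-like over SPN-like nuclei of Slc32a1-Cre mice, 9 of 25 EF-hand genes were above and 6 below, where all genes had 17.7% above and 21.7% below. The highest were Kcnip1, a gene of a potassium channel-interacting protein (276.8 CPM in interneuron-like and 1.54 CPM in SPN-like nuclei, 5.43), and Vsnl1 (367.9 and 7.75 CPM, 4.87). Of 17 calmodulin genes 4 were above and 9 below, the lowest being Itpka, an inositol trisphosphate kinase gene (0.259 and 118.9 CPM, -4.56).

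The genes most like each member were ranked by Pearson's r of log2(CPM + 5) over 12 profiles, namely the leaning terciles of the 3 larger classes, Oprm1-Cre D2-like nuclei and the interneuron-like nuclei of each plate. The profiles share plates, and with only 12 of them high values are common. For Calb1 the nearest of 7649 genes were Rgs4 (r = 0.98), Tprgl (0.97) and Ppp3r1 (0.97). For Necab1 they included Gnl1 (0.90) and Rbm8a (0.87), and for Necab2 they were B3galt5 (0.83), Psip1 (0.83) and Cyb5r3 (0.82). Pvalb was nearest to Snhg4 (0.90), Rangap1 (0.89) and Klhdc2 (0.88), Calb2 to Chrnb4 (0.97), Tro (0.94) and Slc12a5 (0.93), and Necab3 to Emc7 (0.91), X8430419L09Rik (0.89) and Zc3h13 (0.88).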

How the data were processed

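The authors deposited raw read counts per gene for each well, and their joint table of 768 wells was used. Per the submitters' processing notes the build was mm10, with SAMtools and Seurat among the tools. The aligner, counter, annotation and strand setting were not given in the sources used here. The counts carry no molecular identifiers, so intervals and floors cover counting error only. No pair of kept nuclei had identical counts. Kept nuclei were clustered without the 6 members, on log counts per 10000 of the 2000 most variable genes (30 principal components, 15 neighbours, Leiden resolution 1, seed 1, 8 clusters). A cluster was set apart from SPNs when a marker list of another class lay more than 2 above the mean of all nuclei. Within the 1 such cluster, of 44 nuclei, a nucleus was interneuron-like when its best interneuron list lay more than 4 above that mean, a limit set with the scores in view. The other nuclei were D1-like or D2-like by a difference of more than 2 between the averaged log2(CPM + 1) of 7 markers of either type. Reads were summed per class and plate, without spike-ins and the reporter, and given as CPM. Ratios used 5 CPM added and at least 5 CPM in either sum, and shares used nuclei thinned to 50000 reads, which left out 5 nuclei. The ratios were tested on simulated data. The members, lists and leaning genes were chosen with earlier results of these data known. Named beside the members were the 3 genes nearest to each in profile (1 is not reported here) and, from each list, the highest and lowest genes past a log2 ratio of 1. Alternatives covered classing, depth, doublets, scaling, pseudocount, limits and leaning score. The tools were Python 3.11.15 (leidenalg 0.10.2, igraph 0.11.9, numpy 2.4.6, pandas 2.3.3, scipy 1.17.1).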

Additional observations from a re-analysis of the deposited data

Results flagged for a closer look

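The sign of 3 results differed between groups under the same contrast, and none of these differences was tested. The log2 ratio of Necab1 between the Oprm1-Cre and Slc32a1-Cre plates was 1.42 for D1-like nuclei but -0.88 for D2-like nuclei, of which 24 were Oprm1-Cre. Necab3 in patch-leaning over matrix-leaning Slc32a1-Cre nuclei was at -0.58 for D1-like and at 1.70 for D2-like nuclei, where 1 nucleus held 99% of the patch-leaning reads. Necab3 in interneuron-like over SPN-like nuclei was at 1.65 for Oprm1-Cre, from reads in 2 of 16 interneuron-like nuclei, and at -2.06 for Slc32a1-Cre, from 1 read in 18.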

How the results depend on the processing

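No paired analysis was possible because each genotype is 1 plate and well numbers pair no nuclei. For the same reason no plate could be left out. Of 40 member ratios 15 were past 1 or -1, 13 of these kept their sign in every alternative tried, and 9 were past the limit in every one. Calb1 between plates in D1-like nuclei ranged from -1.47 to -1.26 over the alternatives, and Necab1 from 1.27 to 1.63. Scaling to spike-ins shifted the median log2 ratio of all genes by -0.45 to 0.33, with -0.14 between plates in D1-like nuclei and -0.38 for the leaning of Slc32a1-Cre D2-like nuclei. The values past the limit that changed sign were in patch-leaning over matrix-leaning Slc32a1-Cre D2-like nuclei. With a score above against below 0, Necab3 was at -1.58 and Pvalb at -0.51, and without the nucleus richest in it on each side, an alternative chosen after seeing the data, Necab3 was at -0.27. The count of members past the limit moved by more than 1.5 times, or from 0, in 15 cases. For D1-like over D2-like Oprm1-Cre nuclei the count of 0 became 2 at a limit of 0.5, 1 with a mean over nuclei and 2 when scaled to spike-ins. Between plates in D2-like nuclei the count of 1 became 2 with at least 100000 reads per nucleus and 3 at a limit of 0.5. For patch-leaning over matrix-leaning Oprm1-Cre D1-like nuclei the count of 0 became 2 at a limit of 0.5 and 1 when scaled to spike-ins. For Slc32a1-Cre D1-like nuclei the count of 0 became 4 at a limit of 0.5, and 1 with at least 100000 reads, with the score split into 4 groups, without Oprm1 in the score or when scaled to spike-ins. For Slc32a1-Cre D2-like nuclei the count of 2 became 1 with at least 100000 reads, and 4 at a limit of 0.5 or when scaled to spike-ins. By less than that, the count of 3 between plates in D1-like nuclei became 4 at a limit of 0.5, and that of 4 in interneuron-like over SPN-like Slc32a1-Cre nuclei became 3 under 5 alternatives. The count of 2 in Slc32a1-Cre D2-like leaning became 3 with a score above against below 0 and with the score after thinning. The cause of these moves was not tested, other than that a lower limit takes in more genes. Necab2 in interneuron-like over SPN-like Slc32a1-Cre nuclei lay close to its limit, from -1.81 to -0.66 over the alternatives. The SPN values of Calb2, Pvalb and Necab3 rest on reads of few nuclei, and the part of depth in this was not tested.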

Other observations

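Nuclei outside the named comparisons also carried Necab1. The 6 unnamed Oprm1-Cre nuclei, which lay in the cluster set apart from SPNs but under the interneuron limit, all had Necab1 reads, from 84.8 over a median of 268.7 to 1361 CPM, with 620 CPM of Necab1 and 1.07 CPM of Calb1 in their sum. Of the 4 unnamed Slc32a1-Cre nuclei 2 had Necab1 reads, with 231.7 CPM in the sum. Among SPN-like nuclei of undecided type, the 9 of Oprm1-Cre mice had 108.6 CPM of Necab1 and 1.63 CPM of Necab3. The 17 of Slc32a1-Cre mice had 567 and 92.1 CPM.

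Eccentric SPNs are a known minor SPN type with its own markers. Among Oprm1-Cre D1-like nuclei, 5 had a mean level of these markers more than 2 above that of all nuclei. Their Calb1 level was 4.07 CPM with a read in 1 of the 5, against 313.5 CPM with a read in 66.4% of the other D1-like nuclei. Their Necab1 level was 435 CPM with reads in 4 of 5, against 111.97 CPM in the others, and Necab2 had 167.8 and 153.01 CPM. A single Slc32a1-Cre nucleus met the same limit and had 514 CPM of Necab1 and no Calb1 read. These values come from few nuclei and were not tested.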
